A study of Rattus norvegicus with 13 samples.

Results

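Ocular surface mucins coat the wet epithelium of the eye. They were described here as a set of 10 genes: the mesothelin gene Msln, the membrane mucin genes Muc16, Muc1 and Muc4, the gel-forming mucin genes Muc5ac and Muc5b, the goblet cell genes Agr2 and Spdef, the antibody transporter gene Pigr and the secreted Ly6 protein gene Slurp1. The genes were chosen by name from their known roles, and Msln because it was among the genes with higher values and the smallest p in spironolactone against vehicle at day 3. Of the 10, 8 were found under their own symbol among 28357 gene rows of the day 3 files. Muc5ac was found through an older identifier, AABR07006032.1, that RefSeq gives as its synonym. Muc4 was not matched and has no value here.

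The libraries came from male Lewis rats, wild-type and 2 months old, whose eyes modelled limbal stem cell deficiency, in which vessels grow into the cornea. The animals were injected daily under the skin with systemic spironolactone at 25 mg/kg/day (n = 3 libraries) or a vehicle of 90% olive oil and 10% DMSO (n = 3 libraries), and peripheral cornea with limboscleral tissue was taken at day 3. Spironolactone blocks the mineralocorticoid receptor, and the comparison asked which transcripts differed between treated and vehicle eyes. All 6 libraries of day 3 shared the model, and the sources used here do not give how the deficiency was made. The labels do not say that libraries came from separate animals, so errors measure the spread between these libraries. The 7 libraries of day 7 were not used, since their gene identifiers were not paired with names.

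Membrane mucins such as Muc16, Muc1 and Muc4 stay anchored in the apical cell surface, where their sugar chains form the glycocalyx that keeps the epithelium wettable. Gel-forming mucins are secreted, Muc5ac by conjunctival goblet cells, and make the mucus of the tear film. Mesothelin is a surface glycoprotein that binds Muc16 and is best known from mesothelium and from tumours.

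The tissue held 18.2 to 25.3 M estimated counts per library. The keratin genes Krt4 and Krt13 of conjunctival and other non-cornified epithelium were abundant, with summed conjunctival markers at 10995 to 14400 CPM with spironolactone and 5966 to 9391 CPM in vehicle. The samples are labelled as cornea, and the 7 corneal epithelial markers summed to 2127 to 2253 CPM with spironolactone and 1925 to 2010 CPM in vehicle. Clu, Tkt, Aldh3a1 and Pax6 made up most of that sum, of which Clu and Tkt are also used by many other tissues. The corneal keratin gene Krt12 averaged only 11.6 ± 0.571 CPM with spironolactone and 9.41 ± 2.27 CPM in vehicle (SD, n = 3 each). Retina and lens markers summed to 249.9 to 3272 CPM with spironolactone and 3885 to 4325 CPM in vehicle, and skeletal muscle markers to 119.7 to 227 CPM against 412 to 934 CPM. Their part in the results below was not tested. CPM here is the count scaled to library size after TMM, which adjusts the sizes for composition. In bulk tissue, fewer cells of a type and less RNA per cell cannot be told apart.

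Msln was the most abundant of the measured genes per length, and it was the one gene of the set whose treated and vehicle libraries did not overlap. Its level was 125, 116 and 118 TPM, the length-scaled level deposited by the authors, in spironolactone replicates 1, 2 and 3, against 93.4, 87.3 and 89.0 TPM in vehicle replicates 1, 2 and 3. Every treated library lay above every vehicle library, and within each treatment the libraries lay close together. In normalised counts Msln had 164 ± 6.86 CPM with spironolactone and 118 ± 3.71 CPM in vehicle (SD, n = 3 each). That is 1.39-fold, or 0.47 as a log2 fold change (SE 0.054). Since these values chose the gene, they are a description and carry no test. Msln ranked 2 by p among 7139 genes with a positive log2 fold change in edgeR's quasi-likelihood fit of 14762 genes, in which 0% of genes passed the adjusted threshold of 0.05. Groups that did not overlap were common in this comparison, at 32.0% of all genes tested, 16.0% higher and 16.1% lower. So were small unadjusted values: edgeR gave an unadjusted p under 0.05 to 22.6% of all genes, 12.2% higher and 10.4% lower. By DESeq2 9.10% of genes passed (5.76% higher, 3.34% lower), and by limma-voom 0%.

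**Figure D1:**
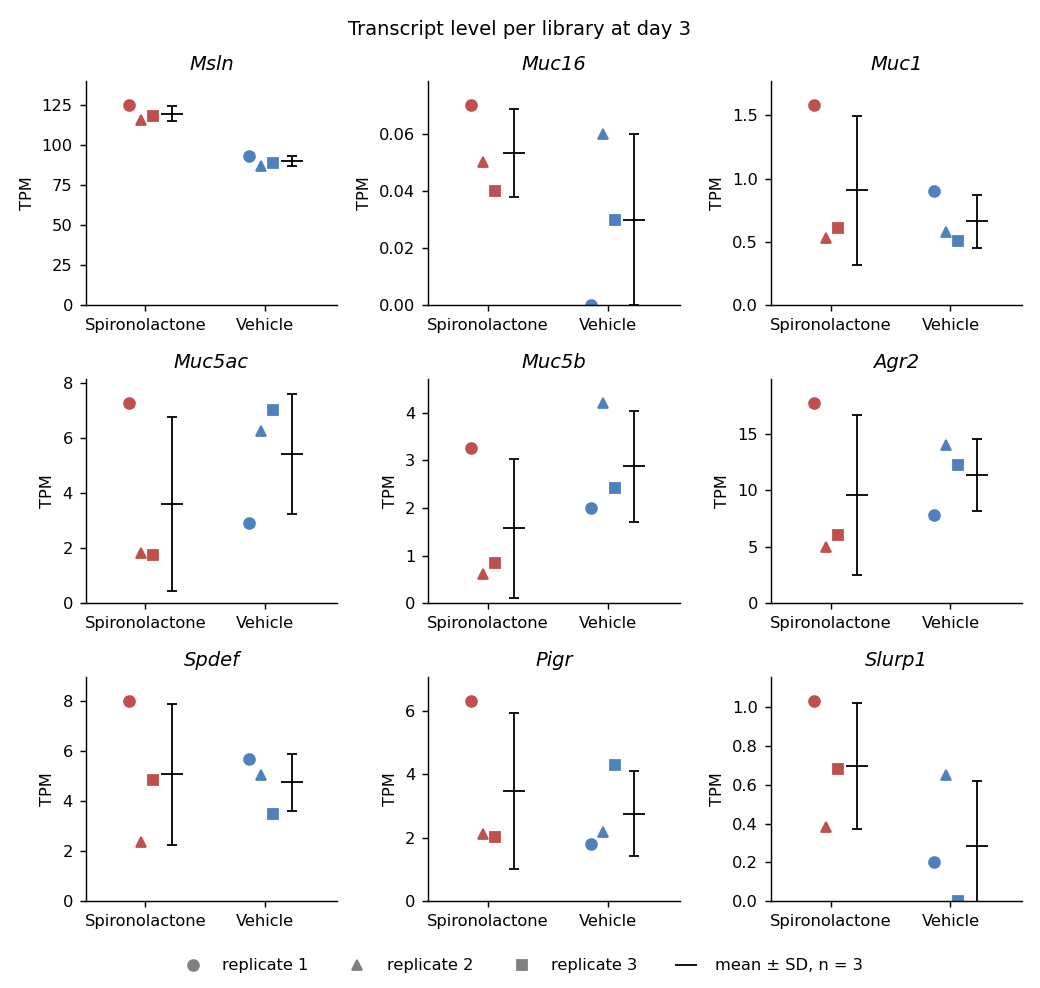
Level of the 9 measured genes in TPM (y axis, linear, from 0) in each library, spironolactone left and vehicle right; symbols mark the replicate, and the black bar is the mean ± SD of 3 libraries, cut at 0. The Msln libraries separate by treatment (116 to 125 against 87.3 to 93.4 TPM), while in the other 8 genes the treated and vehicle libraries overlap.

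The list of pan-epithelial markers also had higher values in the treated libraries. The geometric mean of 10 pan-epithelial markers, among them Cdh1, Epcam, Krt5 and Tp63, was 583, 626 and 662 CPM with spironolactone, against 364, 354 and 467 CPM in vehicle. All 10 markers had groups that did not overlap, all higher with spironolactone (16.0% of all genes), and their median log2 fold change was 0.64. Pan-epithelial is the name of the list, though Krt5, Krt14 and Tp63 belong to stratified epithelium rather than to all epithelium. The log2 fold changes ran from 0.51 for Epcam and 0.52 for Cdh1 to 0.79 for Krt14 and 0.88 for Krt5. A scale made from these genes therefore depends on which are taken. None passed the adjusted threshold of 0.05 in edgeR, while 10 had an unadjusted p under 0.05, all higher (12.2% of all genes). DESeq2 called 10 higher (5.76% of all genes) and limma-voom called 0. The other epithelial lists differed in this. Of the 7 conjunctival markers, 7 had a positive log2 fold change and 5 had groups that did not overlap, all higher. Of the 7 corneal markers, 5 had a positive log2 fold change and 1 had groups that did not overlap, higher. Over all genes tested, 48.4% were positive and 16.0% were higher with groups that did not overlap. DESeq2 called 5 conjunctival and 1 corneal marker higher (5.76% of all genes), and edgeR and limma-voom called 0. Set against the pan-epithelial mean, Msln amounted to 29.5, 25.3 and 24.7 CPM per 100 CPM of the markers with spironolactone, and to 33.5, 32.3 and 25.4 with vehicle. On this scale the treated libraries overlapped the vehicle libraries, and the log2 fold change of Msln was -0.20 (SE 0.17). This scaling moved the median of all genes to -0.68 on the log2 scale, and 2.08% of genes then had a positive value, against 48.4% with TMM scaling. The scaling sets a factor per library, so it shifts genes down in general and can also change their spread. The place of Msln among all genes on this scale was not determined. The 7 mesothelial markers summed to 107 to 197 CPM with spironolactone and 194 to 210.2 CPM in vehicle. Gpm6a and Calb2 carried most of that sum. Wt1, a defining marker, was at 0 in all treated libraries and at most 0.0448 CPM in vehicle, and Upk3b averaged 0.175 CPM with spironolactone and 0.128 CPM in vehicle. Bnc1, which squamous epithelium also expresses, had 3.94, 2.98 and 3.65 CPM with spironolactone, against 2.36, 2.19 and 2.4 CPM in vehicle. Its groups did not overlap (16.0% of all genes were higher in this way), and its log2 fold change was 0.60 (edgeR adjusted p = 0.115). Calb2 was lower without overlap, at 15.0, 15.3 and 0.75 CPM with spironolactone against 22.5, 20.0 and 20.4 CPM in vehicle. The log2 fold change of Calb2 was -1.01, and that of Gpm6a was -0.30. Of the 4 tested mesothelial markers, 2 had a positive log2 fold change, with a median of -0.11. The part of mesothelial cells in the values of Msln was not tested.

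**Figure D2:**
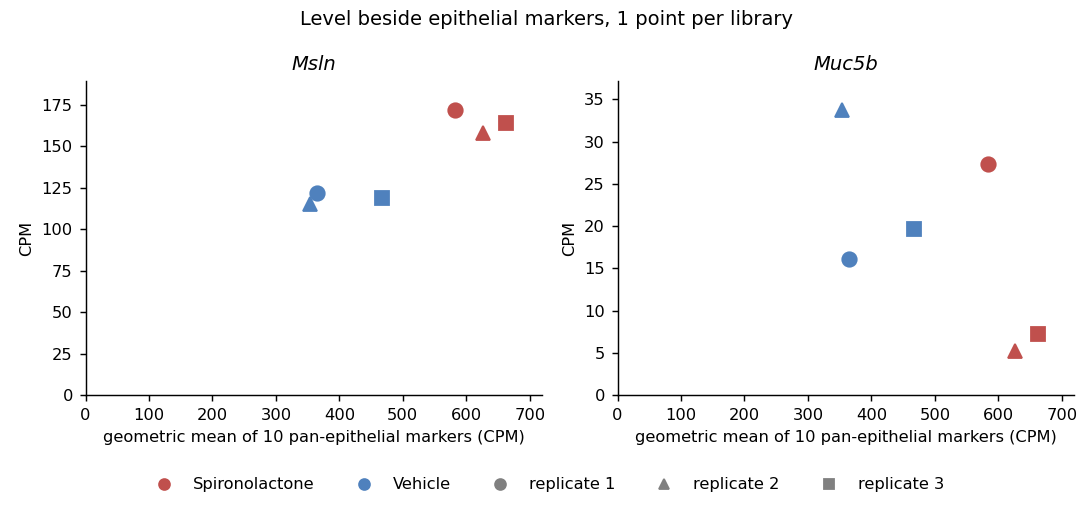
CPM of Msln (left) and Muc5b (right) against the geometric mean CPM of 10 pan-epithelial markers, 1 point per library, all axes linear from 0. The 3 spironolactone libraries lie to the right of the 3 vehicle libraries (583 to 662 against 354 to 467 CPM); Msln is also higher in them, while Muc5b spans 5.2 to 27.4 CPM among them.

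Muc16, the membrane mucin that mesothelin binds, was at the limit of detection. It had 4, 4 and 3 counts in the spironolactone libraries, against 0, 4 and 2 counts in the vehicle libraries. The 0 in vehicle replicate 1 allows up to 0.124 CPM (3 counts, counting error only), so no difference was detectable at this depth. The deposited Muc16 model holds 1 transcript of 5047 bases, and how much of the full transcript it covers was not tested. Msln transcript stood at 119.8 ± 4.42 TPM with spironolactone and 89.9 ± 3.16 TPM in vehicle, in libraries where Muc16 averaged 0.0533 and 0.03 TPM (n = 3 each). Slurp1, which encodes a secreted Ly6 protein that is abundant in healthy mouse cornea and dampens inflammation there, was equally sparse. It had 4, 2 and 3 counts with spironolactone and 1, 3 and 0 counts with vehicle, where the 0 allows up to 0.126 CPM. Muc16 and Slurp1 were below the expression filter, which left 7 genes of the set in the fit.

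Muc1, a small membrane mucin with a signalling tail, was also low. It had 1.58, 0.53 and 0.61 TPM in spironolactone replicates 1, 2 and 3, against 0.9, 0.58 and 0.51 TPM in vehicle replicates 1, 2 and 3. Spironolactone replicate 1 stood above the other 5 libraries, which overlapped. The log2 fold change was 0.48 (SE 0.48), and it was -0.15 without spironolactone replicate 1.

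Both gel-forming mucin genes had lower mean values with spironolactone, but the treated libraries were split. Muc5b had 27.4, 5.2 and 7.2 CPM in spironolactone replicates 1, 2 and 3, against 16.1, 33.8 and 19.7 CPM in vehicle replicates 1, 2 and 3. Replicates 2 and 3 of the treatment lay below every vehicle library, and replicate 1 lay above 2 of the 3. Muc5ac showed the same split, with 15.6, 3.91 and 3.75 CPM with spironolactone, against 5.97, 12.9 and 14.6 CPM in vehicle. Here replicate 1 of the treatment was the highest of all 6 libraries. The log2 fold change was -0.82 (SE 0.71) for Muc5b and -0.54 (SE 0.67) for Muc5ac, each close to its error. Without spironolactone replicate 1 these values were -1.91 and -1.54, and without spironolactone replicate 2 they were -0.43 and -0.21. Without the replicates 3 of both treatments they were -0.64 and 0.02. The deposited Muc5ac model is 3309 bases long and that of Muc5b 12471 bases, each as 1 transcript.

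Agr2, a protein disulfide isomerase of the endoplasmic reticulum that mouse intestine needs to make mucin, followed the gel-forming mucins. It had 9.24, 2.62 and 3.25 CPM with spironolactone, against 3.94, 7.12 and 6.24 CPM in vehicle, so replicate 1 was the highest and replicates 2 and 3 the lowest of the 6. Its log2 fold change was -0.21 (SE 0.51), and it ran from -0.98 without spironolactone replicate 1 to 0.11 without spironolactone replicate 2. Spdef, an ETS-family transcription factor that mouse conjunctiva needs to form goblet cells, had 8.85, 2.58 and 5.4 CPM with spironolactone, against 5.97, 5.33 and 3.75 CPM in vehicle. Treated replicate 1 was again the highest and replicate 2 the lowest, but replicate 3 lay within the vehicle range, and the log2 fold change was 0.15 (SE 0.43). Its sign turned in 5 of 16 alternatives, among them -0.34 without spironolactone replicate 1. Pigr encodes the receptor that carries IgA and IgM across epithelium into tears. It had 14.3, 4.47 and 4.4 CPM with spironolactone, against 3.86, 4.57 and 9.4 CPM in vehicle, so that 1 library of each treatment stood above the other 4. The log2 fold change of Pigr was 0.36 (SE 0.6), with -0.42 without spironolactone replicate 1 and 0.88 without vehicle replicate 3. The length that the authors' files weight by transcript ran from 3296 to 3477 bases for Pigr, which has 3 annotated transcripts.

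Promoter sequences are shown for the secretory genes, to set the sequence at the start of each beside its values. Of the 10 genes of the set, 5 are in RefSeq's GRCr8 promoter table, and the 3 printed are Agr2, Spdef and Pigr, each highest in spironolactone replicate 1, as the 250 bases before the start, on the gene's strand, 5′ to 3′. They lie at chr6:58435658-58435907 (plus strand), chr20:5787686-5787935 (minus strand) and chr13:44850932-44851181 (plus strand). Capitals mark matches to 3 motifs searched on both strands: AGAACA, the core hexamer bound by mineralocorticoid and glucocorticoid receptors; CACGTG, the E-box; and TATAAA, the TATA box.
Agr2: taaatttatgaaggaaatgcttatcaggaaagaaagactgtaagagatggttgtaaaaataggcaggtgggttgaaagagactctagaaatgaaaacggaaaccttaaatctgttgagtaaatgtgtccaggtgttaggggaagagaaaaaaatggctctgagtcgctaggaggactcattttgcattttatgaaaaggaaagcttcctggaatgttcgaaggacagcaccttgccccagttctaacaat
Spdef: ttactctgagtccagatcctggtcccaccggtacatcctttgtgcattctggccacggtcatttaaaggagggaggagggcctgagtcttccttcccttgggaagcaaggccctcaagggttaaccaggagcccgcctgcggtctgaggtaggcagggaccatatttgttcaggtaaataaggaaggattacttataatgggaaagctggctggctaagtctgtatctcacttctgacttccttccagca
Pigr: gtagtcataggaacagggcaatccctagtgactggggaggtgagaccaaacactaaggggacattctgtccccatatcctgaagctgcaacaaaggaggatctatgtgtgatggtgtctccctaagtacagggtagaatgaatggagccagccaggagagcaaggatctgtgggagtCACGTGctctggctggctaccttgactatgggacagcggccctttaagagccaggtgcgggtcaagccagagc
The only match in these printed windows was an E-box in Pigr, beginning 73 bases before the start. The windows of the membrane mucin genes Muc1 and Muc4 were not printed. That of Muc1, a gene also highest in spironolactone replicate 1, held TATAAA beginning 33 bases before the start. That of Muc4 held no match. Among 33469 promoter windows of the same length, 5.59% held CACGTG, 17.5% AGAACA and 12.9% TATAAA on either strand. A match describes letters and not a bound site.

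Some other goblet cell genes were also highest in spironolactone replicate 1 and lowest in spironolactone replicate 2. A list of 15 goblet and secretory genes had 8 members in the fit, of which 2 had a positive log2 fold change, with a median of -0.21, beside -0.01 over all genes tested. None passed edgeR's adjusted threshold of 0.05 (smallest adjusted p = 0.25), none had an unadjusted p under 0.05, and DESeq2 and limma-voom called 0. Fcgbp, which encodes a mucus protein that links to mucins, had 189, 29.2 and 37.9 CPM with spironolactone, against 56.4, 95.5 and 161 CPM in vehicle. Clca1, which encodes a secreted mucus protease, had 33.2, 10.6 and 12.6 CPM with spironolactone, against 14.4, 22.5 and 27.2 CPM in vehicle. Spironolactone replicate 1 was the highest and replicate 2 the lowest in both genes, as in Gp2, in Foxa3 and in Ern2; these 5 were singled out after their values were seen. Over the 8 tested genes of the list, spironolactone replicate 1 was the highest of all 6 libraries in 6 and spironolactone replicate 2 the lowest in 6, and replicates 2 and 3 held both lowest places in 5. Among the 5 secretory genes of the set, which prompted this count, the same numbers were 4, 3 and 3. The order of the vehicle libraries was not the same in all genes. Muc5ac, Pigr, Clca1, Fcgbp and Gp2 shared one, with vehicle replicate 3 the highest and vehicle replicate 1 the lowest of the vehicle libraries. None of these counts was tested. Creb3l1 was lowest in spironolactone replicate 2 without being highest in replicate 1, Foxa1 was highest in replicate 1 without being lowest in replicate 2, and Tff1 did neither. Tff1, a trefoil peptide gene, had 0.521 ± 0.181 CPM with spironolactone and 0.402 ± 0.125 CPM in vehicle, and Creb3l1 47.0 ± 3.73 and 55.3 ± 7.16 CPM (SD, n = 3 each). The trefoil genes Tff2 and Tff3 were below the filter.

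**Figure D3:**
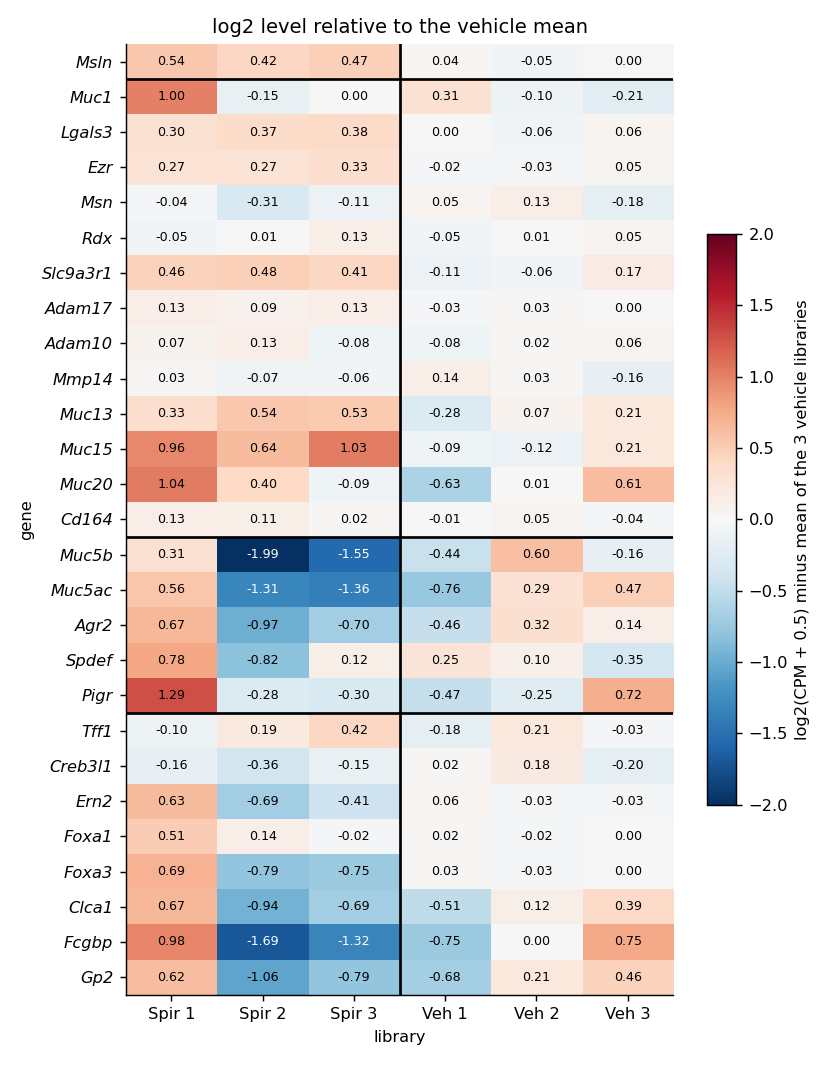
log2(CPM + 0.5) of each gene (rows) in each library (columns, spironolactone left of the line, vehicle right) minus the mean of the 3 vehicle libraries, as colour and number; blocks from top to bottom are Msln, membrane mucins and their partners, the 5 secretory genes of the set, and the goblet list. Msln is 0.42 to 0.54 in all 3 spironolactone libraries, whereas Muc5b is 0.31, -1.99 and -1.55 in them.

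Conjunctival markers differed in where spironolactone replicate 1 stood among the 3 treated libraries. Of the 7 markers, 5 were highest in it (Krt7, Krt8, Krt18, Krt19 and Upk1b) and 2 were lowest in it (Krt4 and Krt13). Krt7 had 279, 243 and 234 CPM in spironolactone replicates 1, 2 and 3, and Krt4 had 3912, 5080 and 4316 CPM in the same libraries. The part of conjunctival content in the split of the goblet genes was not tested. The goblet list summed to 116 to 374 CPM with spironolactone and to 169.6 to 326 CPM in vehicle. How many goblet cells each piece of tissue held was not measured.

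Partners of the membrane mucins were mixed. Of 8 tested partners, 6 had a positive log2 fold change, with a median of 0.08, and 4 had treated libraries that all lay above the vehicle libraries (16.0% of all genes did). None passed the adjusted threshold of 0.05 in edgeR. An unadjusted p under 0.05 was found for 4 of them, all higher (12.2% of all genes), DESeq2 called 3 higher (5.76% of all genes) and limma-voom called 0. Lgals3, galectin-3, which cross-links membrane mucins in the glycocalyx, had 603, 630.2 and 636 CPM with spironolactone, against 489, 470.0 and 508 CPM in vehicle. Its log2 fold change was 0.35 (SE 0.054, edgeR adjusted p = 0.0649). Ezr, ezrin, which ties membrane proteins to actin under the apical surface, had 407, 408 and 427 CPM with spironolactone, against 335, 331 and 351 CPM in vehicle, and its log2 fold change was 0.29 (edgeR adjusted p = 0.0649). The related gene Msn, more typical of stroma and leukocytes, had 637 ± 61.0 and 708 ± 78.2 CPM, with a log2 fold change of -0.15, and Mmp14, a membrane protease, had -0.04. These values, like those of Msln, stand beside the higher pan-epithelial markers: on the pan-epithelial scale the median log2 fold change of the partners was -0.59.

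Of 16 further mucin genes, 7 were matched and 4 were tested, and all 4 had a positive log2 fold change, with a median of 0.46 (48.4% of all genes were positive). Muc15, a membrane mucin, had 4.17, 3.22 and 4.4 CPM with spironolactone, against 1.74, 1.7 and 2.28 CPM in vehicle. Every treated library was above every vehicle library, and the log2 fold change was 1.04 (SE 0.21, edgeR adjusted p = 0.0745), which missed the threshold. Muc13, an epithelial membrane mucin best known from gut, had 12.6, 14.7 and 14.6 CPM with spironolactone, against 8.13, 10.4 and 11.6 CPM in vehicle. Its log2 fold change was 0.48 (edgeR adjusted p = 0.127). Among the 4, edgeR and limma-voom called 0, 2 were higher at an unadjusted p under 0.05 (12.2% of all genes), and DESeq2 called 1 higher (5.76% of all genes). Muc6 and Mucl3 had no counts in any library. On the pan-epithelial scale the median of the 4 was -0.17.

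**Figure D4:**
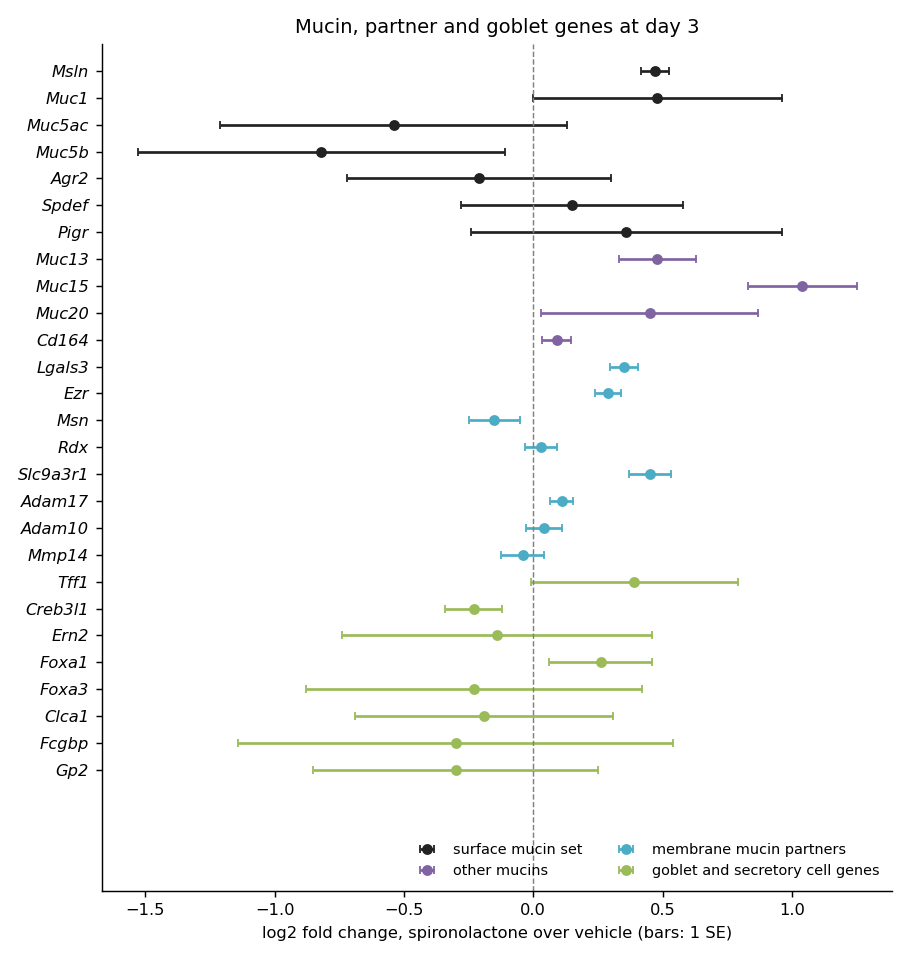
log2 fold change of spironolactone over vehicle (x axis) for the 7 tested genes of the set and for further mucins, membrane mucin partners and goblet genes (y axis); points are edgeR estimates and bars 1 SE. Msln lies at 0.47 with a short bar, Muc15 at 1.04, and the gel-forming and goblet genes have wide bars that mostly cross 0.

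The enzymes that build mucin sugar chains were divided. Of 18 tested, 10 had a positive log2 fold change, with a median of 0.04, and edgeR and limma-voom called 0, with 5 higher and 3 lower at an unadjusted p under 0.05 (12.2% and 10.4% of all genes). By DESeq2 4 were higher and 1 lower (5.76% and 3.34% of all genes). Galnt12, which starts O-glycan chains, had 78.1 ± 7.63 CPM with spironolactone and 58.2 ± 6.57 CPM in vehicle, and St6galnac2, a sialyltransferase gene, had 86.4 ± 9.21 and 69.9 ± 3.33 CPM (SD, n = 3 each). Their log2 fold changes were 0.42 and 0.30, with edgeR adjusted p of 0.0872 and 0.107. St3gal1, a sialyltransferase gene whose product caps the core 1 chain, had 243 ± 15.5 CPM with spironolactone and 292 ± 13.6 CPM in vehicle, and Galnt1, which also starts chains, had 120.2 ± 4.19 and 133 ± 7.21 CPM (SD, n = 3 each). Their log2 fold changes were -0.27 and -0.14, with edgeR adjusted p of 0.0872 and 0.213. In these 4 genes, named for the smallest p in each direction, the treated and vehicle libraries did not overlap. Over the 18 tested, 5 had treated libraries above and 3 below all vehicle libraries (16.0% and 16.1% of all genes).

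Among 12 relatives of Slurp1 in the Ly6 family, 7 were tested. Of these, 6 had a positive log2 fold change (48.4% of all genes were positive), and the median was 0.37. EdgeR and limma-voom called 0, 2 were higher at an unadjusted p under 0.05 (12.2% of all genes) and DESeq2 called 1 higher (5.76% of all genes). Lypd3, a Ly6 gene of stratified epithelium, had 259.7, 274 and 311 CPM with spironolactone, against 167, 161 and 209 CPM in vehicle. Its log2 fold change was 0.65 (SE 0.12, edgeR adjusted p = 0.0657). Ly6g6c had 2.69 ± 0.21 and 1.32 ± 0.719 CPM, with a log2 fold change of 1.03 (edgeR adjusted p = 0.162), and Lypd6 had -0.28. Of the cargo of Pigr, the heavy chain genes Igha and Ighm were not matched and have no value here. Jchain, the chain that joins IgA and IgM, had 0.484 ± 0.231 CPM with spironolactone and 0.726 ± 0.183 CPM in vehicle (SD, n = 3 each). Xbp1, a secretory stress factor gene, had 58.7 ± 4.48 and 69.4 ± 5.5 CPM, with a log2 fold change of -0.24 (edgeR adjusted p = 0.153). Over the 6 lists, 47 genes were tested and 0 passed; 13 had treated libraries above and 3 below all vehicle libraries (16.0% and 16.1% of all genes).

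Per length, the order of levels was set by Msln in both treatments. Msln was followed with spironolactone by Agr2 (9.56 ± 7.03 TPM), Spdef, Muc5ac, Pigr, Muc5b, Muc1, Slurp1 and Muc16, where each neighbouring pair from Agr2 down to Slurp1 overlapped in range. With vehicle Agr2 (11.4 ± 3.2 TPM) stood apart from Muc5ac (5.41 ± 2.18 TPM), and the order went on with Spdef, Muc5b, Pigr, Muc1, Slurp1 and Muc16 (SD, n = 3 each). With vehicle Pigr and Muc1 also did not overlap, at 1.81 to 4.28 against 0.51 to 0.9 TPM. All 54 estimated counts of the 9 measured genes were whole to within 0.01, so none of them held fractions of reads shared with other genes.

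The genes whose log2 CPM was most like that of Msln over the 6 libraries were Klhdc10 (Pearson r = 0.992), Efhd2 (0.988), Chrac1 (0.987), Wdr24 (0.986) and Tmco4 (0.985). Of 10203 other genes with a mean of at least 10 CPM, 99 (0.97%) exceeded 0.95. The points share 2 treatment groups, and the values are a description. Efhd2, a calcium-binding actin regulator gene, had 213, 198 and 213 CPM with spironolactone, against 172, 168 and 171 CPM in vehicle. No gel-forming mucin or goblet gene could be among them by the rule used, which left out the listed genes.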

How the data were processed

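Per the file headers, which have the layout of RSEM, the day 3 files hold the authors' expected counts and TPM for each gene. RSEM 1.2.28, STAR 2.5.3a, fastp, FastQC, Picard, DRAGEN, edgeR 3.28.0 and DESeq2 1.26.0 are named in the submitters' processing notes with the builds rn6 and Rnor_6.0, without their roles. Strand use in counting is not stated there. The expected counts were rounded to whole numbers. One row that names no gene, with 0.12% to 0.181% of counts, was left out. Genes passing edgeR's expression filter (minimum count 10) were scaled by TMM and tested with the quasi-likelihood F test with robust estimation in edgeR 4.0.16 and R 4.3.3, with Benjamini-Hochberg adjustment over 14762 genes at 0.05. SE was taken as the log2 fold change over the root of F. Limma 3.58.1 (voom) and DESeq2 1.42.0, which gave no adjusted p for 864 genes, were run beside it, and the tests were checked on simulated counts. Same-numbered libraries are not said to be paired. The members and lists were chosen with earlier results of these data known. The text names all 10 genes, the 2 members with the smallest p per direction of each further list, and the 5 genes most like Msln. Fcgbp, Clca1, Foxa3, Ern2 and the single cell type markers were named after their values were seen. The pan-epithelial list is given as a geometric mean, and other cell type lists as sums. Those for neutrophils (30.2 to 53.4 CPM with spironolactone, 42.4 to 58.0 CPM with vehicle), blood endothelium (356 to 466 and 491 to 651 CPM) and lacrimal and meibomian gland (101 to 222 and 246 to 256 CPM) were not used further, and their part in the results was not tested.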

Additional observations from a re-analysis of the deposited data

How the results depend on the processing

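The number of genes called at day 3 depended on the tool, the filter and single libraries. Against 0 in edgeR, DESeq2 called 1344 (851 higher, 493 lower) and edgeR with no filter 148 (106 and 42). Without the replicates 3 of both treatments edgeR called 1040 (653 and 387). Scaled to the pan-epithelial markers it called 12125 (8 and 12117), with the median log2 fold change of all genes at -0.68. Leaving out 1 library in turn gave 0 to 781 calls (0 to 551 higher, 0 to 230 lower). Of the 47 genes of the further lists, 10 were called by DESeq2 (9.10% of all genes) and 26 on the pan-epithelial scale (12125 of all 14762 genes). With no filter 1 was called, and without both replicates 3 the number was 9. It was 0 to 7 with 1 library left out, the 7 without vehicle replicate 3. The number of genes in these other fits is not given here, so no share of all genes stands beside their counts. The number of the 7 tested genes of the set with a positive log2 fold change was 4, 0 on the pan-epithelial scale, and 1 to 5 with 1 library left out, the 1 without spironolactone replicate 1. Where no value or construction is given, the cause was not tested. Msln stayed between 0.42 and 0.50 in all alternatives but the pan-epithelial scale, where it was -0.20. Since Msln was chosen for a small p in this contrast, which favours libraries that lie close together, this narrow range carries no test. Of 207 single values over 13 quantities and 16 alternatives, 18 moved by more than 1 SD between replicates, 9 of them on the pan-epithelial scale and 9 with libraries left out. Muc1 had no value under a filter of 1 CPM in 3 libraries. With replicate number as a block edgeR called 0 genes. Deviations of same-numbered libraries from their treatment mean correlated at 0.108, -0.089 and 0.060, and those of differently numbered libraries at -0.149 to 0.072. With 3 libraries per mean the deviations within a treatment depend on one another, so these values cannot decide whether libraries were paired. At 18.2 to 25.3 M counts, Muc16 and Slurp1 had 4 counts or fewer per library, and no difference was detectable for them.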
